A study of Homo sapiens with 9 samples.

Results

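The comparison described here set MIA PaCa-2 cells treated with compound 1, an inhibitor of the related kinases TBK1 and IKKε, against the same cells given the vehicle dimethyl sulfoxide (DMSO), across all genes. It took the 3 compound 1 libraries and the 3 DMSO libraries, which are 6 of the 9 samples of the series, and 12849 of the 58735 genes in the count table had enough reads to be tested. MIA PaCa-2 cells are a long-established line from a human pancreatic carcinoma, and they were labelled as wild type here. Compound 1 was given at 1 μM and DMSO at 0.1%, each for 24 h. The other 3 samples had 1 μM SCH772984, an inhibitor of the kinases ERK1 and ERK2, for the same time. The labels do not say whether the replicates came from separate cultures, so the p-values measure the spread between these samples, which may be technical. An inhibitor at a single dose and time acts on the kinases without removing them, and the libraries hold no readout of kinase activity.

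TBK1 and IKKε (gene IKBKE) are serine/threonine kinases of the IκB kinase family. They are best known for phosphorylating the transcription factors IRF3 and IRF7 downstream of sensors of foreign nucleic acids, which starts the interferon response, and they also modify NF-κB signaling and the receptors that deliver cargo to autophagy. The canonical family members IKKα (CHUK) and IKKβ (IKBKB) release NF-κB by phosphorylating its inhibitor IκBα, which NF-κB in turn induces.

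The 6 libraries held 9464432 to 10286223 counted reads, with 3.33% to 3.98% of them on mitochondrially encoded genes. Keratins KRT8 and KRT18 and vimentin (VIM) were abundant in all 6 libraries, whereas EPCAM had 0 counts in each and the epithelial markers KRT7 and CDH1 had at most 5 and 3 counts. Of 28 markers of other cell types, 15 had no count in any of the 6 libraries, among them PTPRC, INS, PRSS1 and CHGA. Their summed level, carried mostly by the collagen gene COL1A2, was 448 to 494 CPM, counts per 1000000 counts of the library, in the DMSO libraries and 479 to 524 CPM in the compound 1 libraries, and none of the 4 that could be tested passed the test. Compound 1 replicate 1 stood apart. The chi-square per degree of freedom between libraries was 2.42 to 3.32 among the DMSO libraries and 2.75 between compound 1 replicates 2 and 3, but 11.1 and 8.29 between replicate 1 and those replicates. Levels are given for DMSO replicates 1 to 3 first and compound 1 replicates 1 to 3 second. Results are given with all 3 compound 1 libraries, and counts and calls that moved without replicate 1 are given beside them.

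After Benjamini-Hochberg adjustment of edgeR's quasi-likelihood test, 63 genes rose with compound 1, 0.490% of those tested, and 48 fell, 0.374%. All 111 had the 3 compound 1 libraries on one side of the 3 DMSO libraries, a separation seen for 10.6% of all genes tested in the upward and 10.7% in the downward direction. The rises had a median of 0.59 on the log2 scale and the falls a median of -0.39, and 6 of the rises but 0 of the falls reached 2-fold. At an unadjusted p under 0.05, 945 genes were higher (7.35%) and 988 lower (7.69%). Without replicate 1, 13084 genes were tested, of which 453 rose (3.46%) and 798 fell (6.10%), and these counts include all 63 risen and all 48 fallen genes of the full comparison. Among the 12849 genes tested in the full comparison, 1138 were called only without replicate 1. Replicate 1 itself lay above the DMSO mean for 289 of the 388 risen genes among them, and below it for 539 of the 750 fallen genes. These genes were called against the same DMSO libraries, which favours such agreement, so the counts are no independent check of replicate 1.

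**Figure D1:**
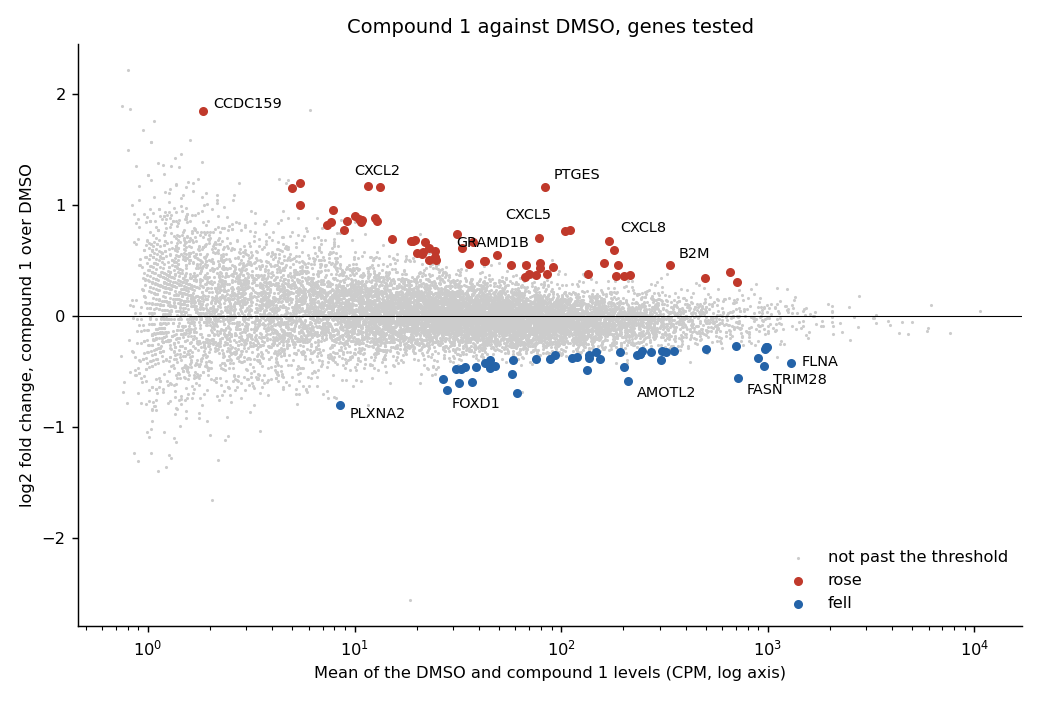
Change with compound 1 (y axis, log2 fold change over DMSO) against the mean level of each gene (x axis, CPM, log axis) for 12849 genes, with the 63 genes that rose in red and the 48 that fell in blue. PTGES and CXCL2 lie highest among the risen genes above 10 CPM, and FASN, TRIM28 and FLNA are among the most abundant fallen genes.

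Neither of the inhibited kinases passed the test at the RNA level. TBK1 measured 33.9, 37 and 37.1 CPM in the DMSO libraries and 36, 40.3 and 40.2 CPM with compound 1, a log2 fold change of 0.11 (SE 0.095, edgeR adjusted p = 0.636). IKBKE was near the detection limit at 1.28, 1.91 and 1.7 CPM with DMSO and 1.96, 3.46 and 2.01 CPM with compound 1. Its log2 fold change of 0.60 had an SE of 0.33 (edgeR adjusted p = 0.414) and replicate 2 was the highest library by far. IKBKE also overlaps a gene of the opposite strand, C1orf147. Per kilobase of gene length the DMSO mean was 7.56 CPM for TBK1 and 0.43 CPM for IKBKE. Of 12 tested genes for TBK1, the IKK kinases and their adaptors, only OPTN rose and none fell, and their median log2 fold change was 0.08 beside 0.00 over all genes tested. OPTN encodes optineurin, an autophagy receptor that binds TBK1, and went from 19.5, 20.2 and 19.3 CPM to 30.9, 23.7 and 34.1 CPM (log2 fold change 0.59, SE 0.13, edgeR adjusted p = 0.0464). All 3 compound 1 libraries were above all DMSO libraries for OPTN, with replicate 2 closest to them, and the gene overlaps CCDC3 on the opposite strand. IKBKB and TANK, the adaptor for which TBK1 is named, gave 0.32 and 0.30 on the log2 scale without passing the test. Without replicate 1, IKBKB rose as well (log2 fold change 0.31, edgeR adjusted p = 0.0237).

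The calls of 5 risen and 3 fallen genes held when any 1 of the 6 libraries was left out. They were the chemokine genes CXCL2, CXCL5 and CXCL8, the prostaglandin synthase PTGES and the sterol transporter GRAMD1B on the upper side, and FASN, AMOTL2 and FOXD1 on the lower side. Of the 63 risen genes, 6 passed again without DMSO replicate 1, 5 without DMSO replicate 2, 10 without DMSO replicate 3, 24 without compound 1 replicate 2 and 15 without compound 1 replicate 3. Of the 48 fallen genes, the same fits kept 3, 3, 5, 20 and 6. All other calls were lost in at least 1 of these fits.

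Targets of NF-κB, chemokines among them, held more risen genes than any other of the 27 lists examined, with all libraries, without replicate 1 and in DESeq2. Of 27 tested targets, 6 rose and 0 fell, while 13 had an unadjusted p under 0.05 in the upward direction. The log2 fold change was above 0 for 19 of them and below 0 for 8. Their median log2 fold change was 0.28, and it stayed between 0.24 and 0.30 when any library was left out. The 6 were CXCL8, CXCL2, CD83, NFKB2, PLAU and NFKBIA, the last of which encodes IκBα itself. Without replicate 1, 11 of the 27 rose and none fell, and in DESeq2 8 rose. CXCL8 encodes interleukin-8, which attracts neutrophils, and measured 132, 127 and 134 CPM with DMSO and 204, 214 and 212 CPM with compound 1 (131 ± 3.74 against 209.9 ± 5.67 CPM, SD, n = 3). The lowest compound 1 library was far above the highest DMSO library, and the log2 fold change was 0.68 (SE 0.067, edgeR adjusted p = 0.000157).

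CXCL2, a related neutrophil chemokine, showed the largest rise of this group at a much lower level, from 8.09, 7.43 and 5.95 CPM to 17.7, 15.2 and 15.7 CPM. The log2 fold change was 1.17 (SE 0.16, edgeR adjusted p = 0.00235). CXCL5, another ligand of the receptor CXCR2, was not a member of the target list and rose from 78, 83.8 and 82.1 CPM to 130.4, 147 and 140.1 CPM, by 0.78 on the log2 scale (SE 0.077, edgeR adjusted p = 0.000157). These 3 genes lie within one cluster of chromosome 4 (hg38), with CXCL8 at chr4:73740506-73743716, CXCL5 at chr4:73995642-73998779 and CXCL2 at chr4:74097035-74099293. Further ligands of the cluster were looked at after these values were seen. CXCL1 had 111, 123 and 108 CPM and 149, 141 and 134 CPM, with all compound 1 libraries higher, but did not pass (log2 fold change 0.31, edgeR adjusted p = 0.0722) except without replicate 1 (edgeR adjusted p = 0.0049). CXCL3 stood at 1.49 to 3.62 CPM with overlapping groups. CXCL1, CXCL2 and CXCL3 are close in sequence, and how reads that match more than one of them were counted is not given in the sources used here.

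The promoters of the called genes were searched for the sequence that NF-κB binds, and 5 of those that hold it are shown. The search covered 250 bases before to 50 bases after each RefSeq start (GRCh38.p14), on both strands, for GGAATTTCC and GGACTTTCC, forms of the κB site of which a given stretch can match only one. A match occurred in 6 of the 39 promoters found for the 63 risen genes (15.4%), in 0 of the 35 found for the 48 fallen genes, and in 0.842% of all 27305 promoters and 0.794% of the 9317 found for genes tested. The 6 genes were CXCL2, CXCL5, CXCL8, B2M, NFKBIA and OPTN, of which the chemokine genes are related and lie in one cluster. The promoters had a median GC content of 61.67% for risen, 68.33% for fallen and 65.67% for tested genes. The part of base composition in these shares was not tested. The promoters without a match include those of CD83 and NFKB2, and PTGES has no match in this window either. Of the 6 risen genes with a match, 5 were picked to show where it lies, and they include CXCL5 and B2M, which are not on the NF-κB target list. The 250 bases before their starts follow, 5′ to 3′ along the gene, with each match in capitals.
CXCL8 (chr4:73740319-73740568, plus strand): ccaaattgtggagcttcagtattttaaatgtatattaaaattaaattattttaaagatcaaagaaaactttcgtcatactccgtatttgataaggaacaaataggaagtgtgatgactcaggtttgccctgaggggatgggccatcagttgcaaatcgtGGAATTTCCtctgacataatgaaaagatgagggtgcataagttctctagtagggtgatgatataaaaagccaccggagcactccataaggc
CXCL5 (chr4:73998678-73998927, minus strand): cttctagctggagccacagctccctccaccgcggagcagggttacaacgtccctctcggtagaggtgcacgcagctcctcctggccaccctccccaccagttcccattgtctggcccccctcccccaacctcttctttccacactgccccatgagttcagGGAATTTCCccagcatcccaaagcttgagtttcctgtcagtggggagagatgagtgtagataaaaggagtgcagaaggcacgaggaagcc
CXCL2 (chr4:74099196-74099445, minus strand): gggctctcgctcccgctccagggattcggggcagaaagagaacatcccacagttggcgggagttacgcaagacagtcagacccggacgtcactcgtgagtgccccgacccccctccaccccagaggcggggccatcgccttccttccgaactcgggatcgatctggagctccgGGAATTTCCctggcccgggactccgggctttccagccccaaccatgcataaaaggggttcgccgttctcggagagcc
B2M (chr15:44711267-44711516, plus strand): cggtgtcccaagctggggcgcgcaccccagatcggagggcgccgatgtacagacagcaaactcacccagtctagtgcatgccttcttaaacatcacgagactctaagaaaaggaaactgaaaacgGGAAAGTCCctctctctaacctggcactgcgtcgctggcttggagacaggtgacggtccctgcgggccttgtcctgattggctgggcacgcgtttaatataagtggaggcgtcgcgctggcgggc
NFKBIA (chr14:35404750-35404999, minus strand): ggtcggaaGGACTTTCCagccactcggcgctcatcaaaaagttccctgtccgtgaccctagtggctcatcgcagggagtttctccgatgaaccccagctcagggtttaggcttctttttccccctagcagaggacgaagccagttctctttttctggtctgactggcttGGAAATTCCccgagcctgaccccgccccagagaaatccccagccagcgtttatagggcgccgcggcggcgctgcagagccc
The match began at position -91 in CXCL8, -90 in CXCL5 and -77 in CXCL2, counted back from the start as -1. It began at -125 in B2M, at -11 in OPTN, and at -242 and -81 in NFKBIA. The chemokine promoters and the upstream match in NFKBIA read the motif on the strand of the gene, whereas B2M carries GGACTTTCC on the opposite strand. A match is a stretch of letters and not a measured binding site.

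Motifs of 8 other factors were searched in the same windows on both strands. The AP-1 motif TGANTCA was in 4 of the 39 risen (10.3%) and 3 of the 35 fallen promoters (8.57%), against 4.14% of those of genes tested. The interferon response motif GAAANNGAA was in 4 risen and 3 fallen promoters too, against 6.10% of those tested. The E-box CACGTG was in 1 risen (2.56%) and 6 fallen promoters (17.1%), against 10.5% of those tested. The NF-Y motif CCAAT was in 19 risen (48.7%) and 11 fallen promoters (31.4%), against 36.7% of those tested. The cyclic AMP response motif TGACGTCA was in 1 risen and 0 fallen promoters, against 3.42% of those tested. The E2F motifs TTTGGCGC and TTTCCCGC, the aryl hydrocarbon receptor motif TTGCGTG and the ATF4 motif TTGCATCA were in 0 of either, against 3.93% for either E2F motif, 1.67% and 0.354% of those tested. These motifs were not searched for overlap with one another, and no difference between these shares was tested.

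The other NF-κB targets that rose were smaller in size or level. CD83, a surface protein of activated immune cells, went from 8.09, 9.34 and 10.2 CPM to 16.7, 16.2 and 16.9 CPM (log2 fold change 0.85, SE 0.14, edgeR adjusted p = 0.0134). NFKB2 encodes the p100 precursor of the noncanonical NF-κB subunit p52 and went from 62.4, 70.8 and 64.2 CPM to 99.5, 88.1 and 87.2 CPM (log2 fold change 0.48, SE 0.086, edgeR adjusted p = 0.0247). NFKBIA measured 65.7, 66.4 and 65.8 CPM in DMSO and 86.6, 81.2 and 88.2 CPM with compound 1 (log2 fold change 0.37, edgeR adjusted p = 0.0383). The 3 DMSO libraries were nearly equal for NFKBIA, and all compound 1 libraries were clearly above them. PLAU, which encodes the urokinase protease, rose by 0.37 on the log2 scale (edgeR adjusted p = 0.0365). CSF3, the granulocyte colony-stimulating factor, is on no list here and was named after its values were seen. It had 17.5, 16.9 and 17.2 CPM in DMSO and 30.1, 24.1 and 22.9 CPM with compound 1, with replicate 1 highest (log2 fold change 0.58, edgeR adjusted p = 0.0438). Among the targets that missed the threshold, BIRC3 had 34.6, 35.4 and 35.1 CPM and 36.8, 49.6 and 50.9 CPM. Replicate 1 of BIRC3 lay near the DMSO libraries and the other replicates well above, and without replicate 1 BIRC3 rose (log2 fold change 0.52, edgeR adjusted p = 9.27e-05).

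PTGES, the enzyme that makes prostaglandin E2 from its precursor, had the lowest p of all genes together with CXCL5 and CXCL8. It measured 59.7, 44.9 and 49.6 CPM with DMSO and 134, 109 and 103 CPM with compound 1 (log2 fold change 1.17, SE 0.11, edgeR adjusted p = 0.000157). Replicate 1 was the highest compound 1 library, yet the lowest was still well above the highest DMSO library, and without replicate 1 the log2 fold change was 1.04. GRAMD1B, which moves cholesterol from the plasma membrane to the endoplasmic reticulum, went from 75.5, 74.5 and 82.5 CPM to 117, 135 and 142 CPM (log2 fold change 0.76, SE 0.087, edgeR adjusted p = 0.000555). Lower in level were TNFRSF25, a death receptor (7.69, 9.45 and 9.35 CPM against 15.4, 18.7 and 14.6 CPM, log2 fold change 0.88), and CSAD, an enzyme of taurine synthesis (7.3, 6.16 and 7.65 CPM against 14.6, 13.5 and 11.2 CPM, log2 fold change 0.90). Both rose, with edgeR adjusted p of 0.02 and 0.0247, but TNFRSF25 shares exon positions with PLEKHG5 and, on the opposite strand, ESPN. NOXA1, an activator of a superoxide-producing NADPH oxidase, rose by 0.87 (edgeR adjusted p = 0.0365). CSAD and NOXA1 also overlap genes of the opposite strand, and whether counting used the strand is not given in the sources used here. CCDC159 had the largest log2 fold change of the risen genes, 1.84, but stood at only 0.493, 0.956 and 0.957 CPM in DMSO and 3.19, 2.65 and 2.82 CPM with compound 1 and was named after its value was seen.

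**Figure D2:**
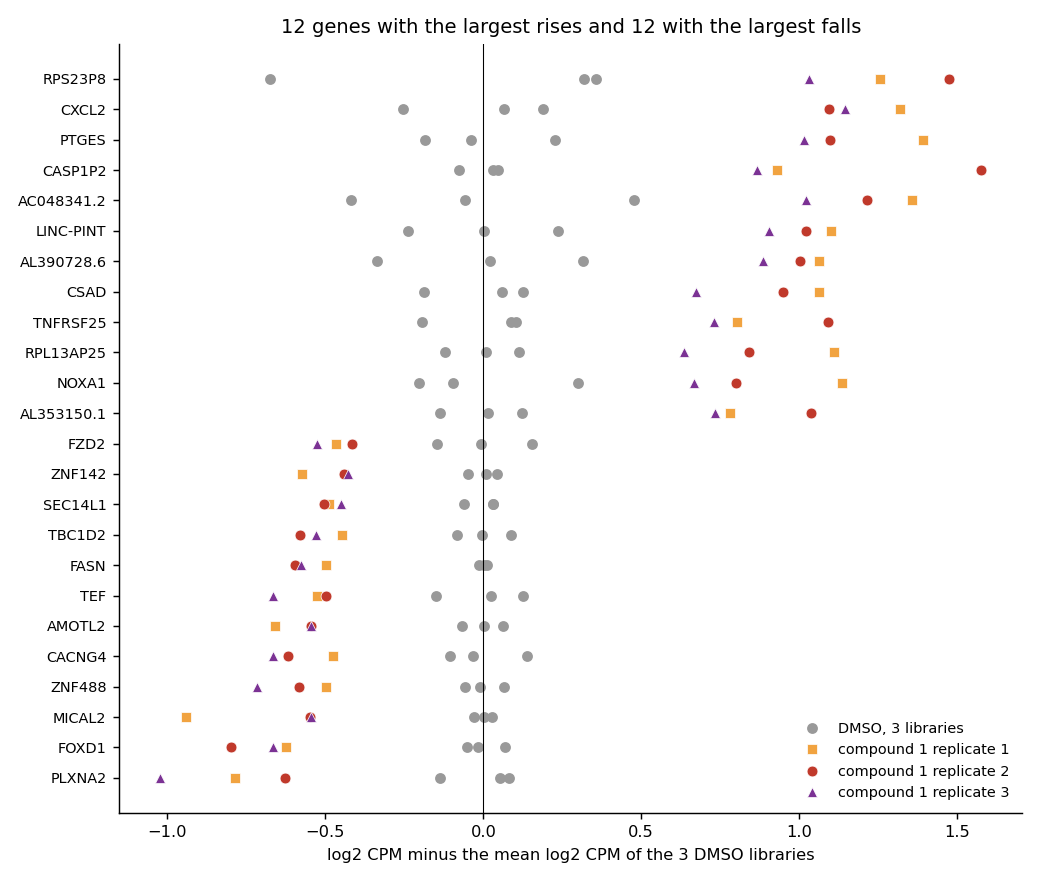
Level of 24 genes in each library, as log2 CPM minus the mean log2 CPM of the 3 DMSO libraries (x axis), for the 12 largest rises and the 12 largest falls among genes that passed the test at a mean of at least 2 CPM. Grey points are DMSO libraries and coloured points the 3 compound 1 replicates. MICAL2 has replicate 1 farthest from zero, CASP1P2 has replicate 2 farthest, and FASN shows the tightest DMSO libraries.

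B2M, a gene of antigen presentation, and IFITM1 were the interferon-stimulated genes that rose. Of 34 tested interferon-stimulated genes, 2 rose and 0 fell, 30 had a log2 fold change above 0 and the median was 0.24. The medians of the single compound 1 libraries were 0.34, 0.17 and 0.25. Without replicate 1, 5 rose and 0 fell, and in DESeq2 4 rose and 0 fell. B2M encodes the light chain of all MHC class I molecules and measured 294, 268 and 288 CPM with DMSO and 402, 389.6 and 373 CPM with compound 1 (log2 fold change 0.46, SE 0.065, edgeR adjusted p = 0.00477). The groups did not overlap, and the call held in 4 of the 6 fits that each left out 1 library. IFITM1, an interferon-induced membrane protein that blocks virus entry, had 18.2, 16.1 and 14.2 CPM and 25.9, 21.9 and 24.4 CPM (log2 fold change 0.57, SE 0.12, edgeR adjusted p = 0.0464), and it overlaps its neighbour IFITM2 on the same strand. The class I heavy chains did not pass at 3 replicates. HLA-C had 21.7, 18.9 and 22.2 CPM and 28.1, 28.8 and 29.6 CPM, without overlap (log2 fold change 0.46, edgeR adjusted p = 0.0554), and rose without replicate 1 (edgeR adjusted p = 0.00425). HLA-B had 40.7, 45 and 40.1 CPM and 71.9, 52.7 and 50.4 CPM, with replicate 1 far above the other compound 1 libraries, and its log2 fold change went from 0.48 to 0.29 without that library (edgeR adjusted p = 0.0214). ERAP2, which trims peptides for class I loading and was named after its values were seen, rose from 8.39, 7.11 and 7.44 CPM to 13.5, 12.5 and 15.3 CPM (log2 fold change 0.85, SE 0.15, edgeR adjusted p = 0.0246).

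The interferon genes IFNB1 and IFNL1, the chemokine gene CXCL10 and the cytokine gene IL6 had 0 counts in all 6 libraries, which for each library allows up to 3 counts of its total. The interferon-stimulated genes IFIT1 (131 to 159 counts) and ISG15 (34 to 52 counts) overlapped between the groups. Of 11 tested innate sensors and IRF factors none passed in edgeR or DESeq2, and 1 was higher and 1 lower at an unadjusted p under 0.05. The closest was MAVS, the mitochondrial adaptor of RNA sensing, at 176, 178 and 169.9 CPM and 146, 153 and 155 CPM (log2 fold change -0.21, edgeR adjusted p = 0.157), which fell without replicate 1 (edgeR adjusted p = 0.0354) as the single member to pass there. Next was the DNA sensor CGAS (log2 fold change 0.28, edgeR adjusted p = 0.238).

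Targets of YAP/TEAD and SRF, the transcription factors that respond to cell shape and actin tension, held more fallen genes than any other list with all libraries in edgeR. Without replicate 1 the ribosome biogenesis factors held more, 18 against 12, and in DESeq2 both lists had 5. Of 31 tested members 5 fell and none rose, 13 were lower and 1 higher at an unadjusted p under 0.05, and 27 had a log2 fold change below 0. The median was -0.14, and the single compound 1 libraries gave -0.21, -0.19 and -0.18. Without replicate 1, 1 member rose and the median was -0.20. The 5 were AMOTL2, FLNA, MICAL2, AXL and TEAD4. AMOTL2, an angiomotin-family protein that binds YAP and is also induced by it, went from 252, 263 and 240.2 CPM to 159, 172 and 172 CPM (log2 fold change -0.58, SE 0.069, edgeR adjusted p = 0.000721). The highest compound 1 library was far below the lowest DMSO library for AMOTL2.

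FLNA encodes filamin A, which cross-links actin filaments, and fell from 1521, 1484 and 1448 CPM to 1067, 1102 and 1159 CPM (log2 fold change -0.42, SE 0.06, edgeR adjusted p = 0.00477). MICAL2, an enzyme that oxidizes nuclear actin and thereby activates SRF, measured 34.2, 33.6 and 34.9 CPM and 17.8, 23.4 and 23.5 CPM (log2 fold change -0.67, SE 0.12, edgeR adjusted p = 0.02). Replicate 1 was the lowest library for MICAL2, a gene model of 20191 bases, and the log2 fold change without it was -0.55. AXL, a receptor tyrosine kinase, had 257, 226 and 215 CPM and 188, 162 and 158 CPM (log2 fold change -0.46, SE 0.085, edgeR adjusted p = 0.0247). TEAD4, one of the DNA-binding partners of YAP, had 92.7, 87.4 and 77.8 CPM and 68.7, 64.9 and 63.3 CPM (log2 fold change -0.39, SE 0.086, edgeR adjusted p = 0.0465). The best known targets did not pass. CYR61 had 342, 321 and 309 CPM and 301, 268 and 283 CPM and did not pass (log2 fold change -0.19, edgeR adjusted p = 0.193), although it fell without replicate 1 (edgeR adjusted p = 0.00261), and CTGF stood at 7.73 to 9.99 CPM with overlapping groups. Other genes of the actin cytoskeleton and cell cortex among the fallen were named after their values were seen. These were MYH9, the heavy chain of nonmuscle myosin, the actin cross-linker ACTN4, the linker plectin (PLEC), the Arp2/3 activator WASF2 and caveolin-1 (CAV1), with log2 fold changes of -0.28, -0.29, -0.28, -0.35 and -0.32 and edgeR adjusted p of 0.0453, 0.0453, 0.046, 0.0421 and 0.0453.

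FASN, the fatty acid synthase, had the lowest p of the fallen genes. It measured 859.9, 853 and 844 CPM with DMSO and 604, 564 and 571 CPM with compound 1 (852 ± 8.18 against 579.6 ± 21.2 CPM, SD, n = 3), a log2 fold change of -0.56 (SE 0.059, edgeR adjusted p = 0.000297). FASN was the only one of 33 tested genes of cholesterol and fatty acid synthesis that passed, and the median of the list was 0.01. Without replicate 1, 3 of the 33 fell and 0 rose, beside 6.10% fallen and 3.46% risen over all genes tested. ACACA, which makes the malonyl-CoA that FASN uses, had 175, 166 and 169.6 CPM and 112, 147 and 153 CPM and did not pass (log2 fold change -0.31, edgeR adjusted p = 0.14), but fell without replicate 1 (log2 fold change -0.19, edgeR adjusted p = 0.0337). SCD, the stearoyl-CoA desaturase, overlapped between groups at 386 to 449 CPM, and SREBF1, the regulator of the pathway, had 255, 254 and 275 CPM and 259, 212 and 224 CPM. Without replicate 1, whose level was that of the DMSO libraries, SREBF1 fell (log2 fold change -0.27, edgeR adjusted p = 0.00119). LPCAT1, an enzyme of phospholipid remodeling that was named after its values were seen, fell by 0.34 on the log2 scale (edgeR adjusted p = 0.0365).

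Transcription factors, corepressors and receptors of development stood among the remaining fallen genes. FOXD1, a forkhead transcription factor, had 74.7, 79.3 and 73 CPM and 49, 43.5 and 47.6 CPM (log2 fold change -0.70, SE 0.085, edgeR adjusted p = 0.00105), and it overlaps the antisense gene FOXD1-AS1. The semaphorin receptor PLXNA2 showed the largest fall, from 9.87, 11.3 and 11.5 CPM to 6.29, 7.02 and 5.34 CPM (log2 fold change -0.80, SE 0.17, edgeR adjusted p = 0.0376). TRIM28, the corepressor that silences genes and repeats through KRAB zinc finger proteins, had 1120, 1117 and 1064 CPM and 906, 759 and 759 CPM (log2 fold change -0.45, SE 0.073, edgeR adjusted p = 0.0134). Replicate 1 was the compound 1 library closest to DMSO for TRIM28, and without it the log2 fold change was -0.54. NOTCH1, which like TRIM28 was on the list of stem cell markers, had 286, 257 and 266 CPM and 199, 209 and 229 CPM (log2 fold change -0.34, SE 0.072, edgeR adjusted p = 0.0383). These 2 were the only ones of 25 tested stem cell markers that passed, and the median of the list was -0.09. Without replicate 1, 5 of them fell and 1 rose. The Wnt receptor FZD2 (-0.48), the zinc finger genes ZNF488 (-0.60) and ZNF142 (-0.48) and the clock-linked factor TEF (-0.57) fell as well, on the log2 scale, with edgeR adjusted p of 0.0458, 0.0143, 0.0365 and 0.0311. So did SEC14L1, a lipid-binding protein that overlaps SNHG20 and went from 158, 159 and 149 CPM to 110.5, 109 and 114 CPM (log2 fold change -0.48, edgeR adjusted p = 0.00532), TBC1D2, a GTPase-activating protein for RAB7 (log2 fold change -0.52, edgeR adjusted p = 0.0139), and CACNG4, a regulatory subunit of ion channels (log2 fold change -0.59, edgeR adjusted p = 0.0177).

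Few genes of DNA replication and ribosome assembly passed, and more were lower than higher. Of 60 tested replication factors 1 fell and none rose, 11 were lower and 0 higher at an unadjusted p under 0.05, and the median was -0.08. Without replicate 1, 5 of the 60 fell and 0 rose. Of all genes tested, 6.10% fell and 3.46% rose in that fit. With all libraries, 7.69% of all genes tested were lower and 7.35% higher at an unadjusted p under 0.05. The replication factor that fell with all libraries was MCM2, a subunit of the replicative helicase, at 265, 265 and 251 CPM and 209, 193 and 210.3 CPM (log2 fold change -0.35, SE 0.067, edgeR adjusted p = 0.0299). CDC25A, the phosphatase that releases cells into S phase, did not pass at 46.9, 54.5 and 52.4 CPM and 39.8, 39.5 and 47.2 CPM (log2 fold change -0.28, SE 0.10, edgeR adjusted p = 0.192), and replicate 3 lay within the range of the DMSO libraries. Of 80 tested ribosome biogenesis factors, TCOF1 fell, 17 were lower and 1 higher at an unadjusted p under 0.05, and the median was -0.06. TCOF1 encodes treacle, which promotes transcription of ribosomal RNA genes, and had 549, 574 and 538 CPM and 449, 434 and 469.6 CPM (log2 fold change -0.30, SE 0.062, edgeR adjusted p = 0.0376). Without replicate 1, 18 biogenesis factors fell and 2 rose, and in DESeq2 5 fell and 0 rose. CAD, the enzyme that starts pyrimidine synthesis, was named after its values were seen and fell from 357, 360.4 and 359 CPM to 291, 285 and 284 CPM, with both groups tight (log2 fold change -0.33, SE 0.06, edgeR adjusted p = 0.0247).

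An amino acid transporter was also among the fallen genes. Of 36 tested targets of ATF4, the factor that answers amino acid shortage, SLC7A1 fell and none rose, with a median of -0.07. SLC7A1, which imports arginine and lysine, had 399, 389.9 and 377 CPM and 292, 327 and 318 CPM (log2 fold change -0.32, SE 0.065, edgeR adjusted p = 0.0376). Without replicate 1, 8 of the 36 fell and 0 rose, and in DESeq2 2 fell. One of these was SLC7A5, the leucine transporter, at 1386, 1193 and 1170 CPM and 1119, 910.4 and 877 CPM, whose log2 fold change moved from -0.37 (edgeR adjusted p = 0.0664) to -0.49 (edgeR adjusted p = 2.45e-07). Replicate 1 of SLC7A5 was the compound 1 library nearest to DMSO.

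Splicing genes were called in both directions. Of 60 tested spliceosome and SR protein genes 1 rose and 1 fell, and the median was -0.01. Without replicate 1, 7 rose and 10 fell, and in DESeq2 2 rose and 1 fell. SRSF5, a splicing regulator of the SR family, had 130.1, 132 and 141 CPM and 177, 190.1 and 193 CPM (log2 fold change 0.48, SE 0.07, edgeR adjusted p = 0.00599). PRPF8, the scaffold at the center of the spliceosome, had 974, 1038 and 1024 CPM and 707, 818 and 811 CPM (log2 fold change -0.38, SE 0.068, edgeR adjusted p = 0.0245). Outside the list and named after their values were seen, CCNL2, a cyclin found with splicing factors, rose from 147, 127 and 156 CPM to 205, 240.5 and 205 CPM (log2 fold change 0.59, SE 0.088, edgeR adjusted p = 0.00599), and RSRP1, an arginine- and serine-rich protein, rose by 0.67 (edgeR adjusted p = 0.0127). MAT2A, which makes the methyl donor S-adenosylmethionine, had 551, 522 and 633 CPM and 724, 819 and 701 CPM (log2 fold change 0.40, edgeR adjusted p = 0.0365).

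Some of the risen genes were noncoding. All 48 fallen genes were protein coding, as were 11292 of the 12849 genes tested, whereas 16 of the 63 risen genes were not, 9 of them pseudogenes. At an unadjusted p under 0.05, where 7.35% of all genes tested were higher and 7.69% lower, 66 of 684 lincRNA and antisense genes were higher and 16 lower, and 57 of 589 pseudogenes were higher and 15 lower. NEAT1, the long noncoding RNA that builds nuclear paraspeckles, had 51, 59.5 and 68.2 CPM and 84, 112 and 94.2 CPM (log2 fold change 0.70, SE 0.12, edgeR adjusted p = 0.0139). SNHG5, a host of small nucleolar RNAs, had 164, 149 and 172 CPM and 214, 198 and 209 CPM (log2 fold change 0.36, SE 0.073, edgeR adjusted p = 0.0365). Of 17 tested abundant noncoding RNAs and snoRNA hosts these 2 rose and 0 fell, with a median of 0.21, and 5 rose and 0 fell without replicate 1. LINC-PINT, a p53-induced noncoding RNA, rose by 1.00 at 3.06, 3.61 and 4.25 CPM and 7.73, 7.33 and 6.75 CPM (edgeR adjusted p = 0.0365), and its exons overlap those of MKLN1 and AC058791.1 on the opposite strand and AC016831.6 on the same strand. The less studied AC048341.2, AL390728.6 and AL353150.1 rose by 1.15, 0.95 and 0.85, with edgeR adjusted p of 0.0373, 0.0312 and 0.0299. Among the pseudogenes, RPS23P8, RPL13AP25 and CASP1P2 rose by 1.20, 0.87 and 1.16 (edgeR adjusted p = 0.0376, 0.0299 and 0.0125), and since they resemble their parent genes their reads are uncertain.

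Each of the 3 noncoding classes compared took a larger share of the counts in every compound 1 library than in any DMSO library. Of 684 tested lincRNA and antisense genes, 441 had a log2 fold change above 0, 4 rose, 0 fell and the median was 0.13, with and without replicate 1, beside 0.00 for the 11292 protein-coding genes. LincRNA and antisense RNAs took 0.424%, 0.426% and 0.470% of the counts in the DMSO libraries and 0.479%, 0.514% and 0.488% in the compound 1 libraries. Pseudogenes took 0.690% to 0.724% with DMSO and 0.754% to 0.770% with compound 1, and sense intronic and overlapping RNAs 0.0273% to 0.0311% and 0.0316% to 0.0354%. The groups did not overlap in these classes, but with 3 against 3 libraries a two-sided exact permutation test cannot go below p = 0.1 and so cannot pass the threshold. The number of genes of any kind with at least 1 count was 18808 to 19224 in the DMSO libraries and 19811 to 20356 in the compound 1 libraries, at similar totals, and its part in the higher noncoding share was not tested.

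**Figure D3:**
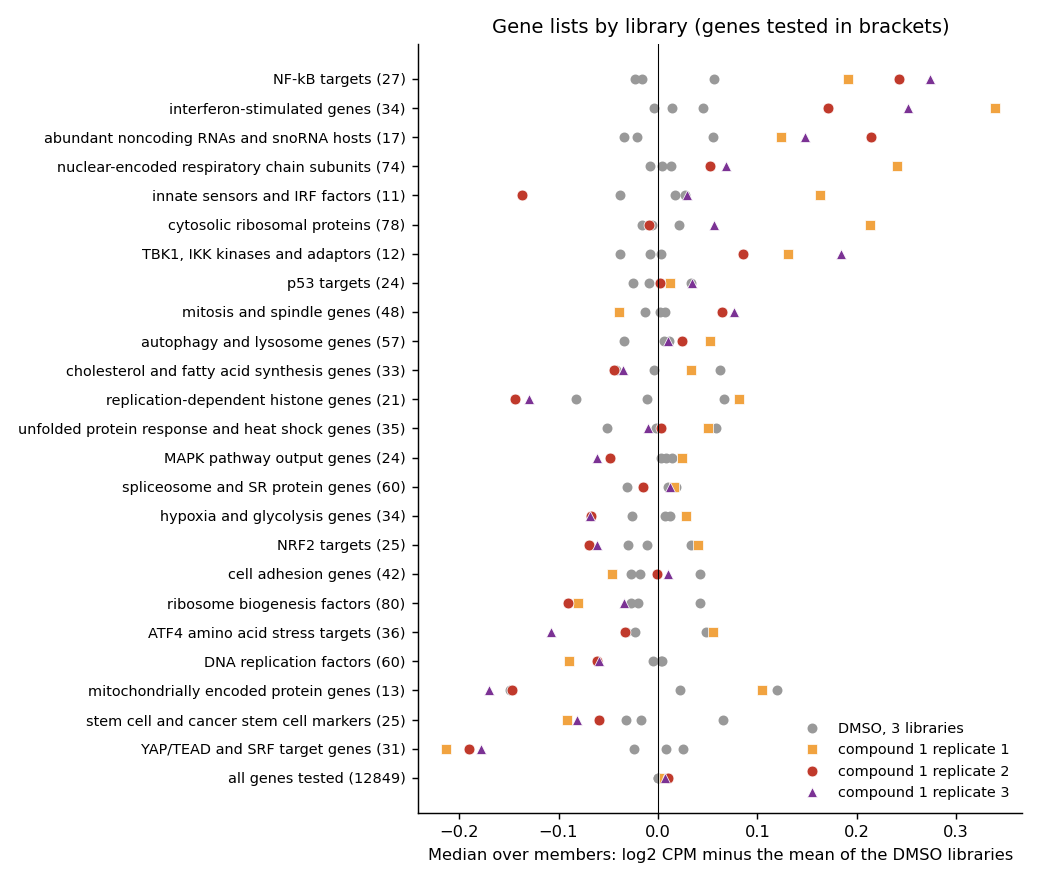
Median over the members of each gene list, in each library, of log2 CPM minus the DMSO mean (x axis), with the number of genes tested in brackets. Grey points are the DMSO libraries and coloured points the compound 1 replicates. NF-κB targets and interferon-stimulated genes lie above the DMSO libraries in all 3 replicates and the YAP/TEAD and SRF targets below, whereas replicate 1 alone sets respiratory chain subunits and ribosomal proteins far to the right.

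Ribosomal proteins and the respiratory chain followed replicate 1. Of 78 tested cytosolic ribosomal protein genes RPL35A rose, 18 were higher at an unadjusted p under 0.05 and the median was 0.08. The libraries gave medians of 0.21 for replicate 1, -0.01 for replicate 2 and 0.06 for replicate 3, and without replicate 1 the median was 0.02, with 10 genes risen and 3 fallen. In DESeq2, 4 rose and 0 fell. RPL35A, a protein of the large subunit, had 633, 614 and 653 CPM and 837, 741 and 772 CPM (log2 fold change 0.31, SE 0.064, edgeR adjusted p = 0.0383). Of 74 nuclear-encoded respiratory chain subunits none passed in edgeR, 2 rose in DESeq2 and 21 had an unadjusted p under 0.05 on the higher side, at medians of 0.24, 0.05 and 0.07 in replicates 1, 2 and 3. Without replicate 1, 3 subunits rose and 5 fell, and the median went from 0.11 to 0.05. Of all genes tested in that fit, 3.46% rose and 6.10% fell. The leading members were ATP5MF (112, 111 and 116 CPM and 168, 133 and 137 CPM, edgeR adjusted p = 0.0659) and NDUFB5 (log2 fold change 0.31, edgeR adjusted p = 0.0766), and both rose without replicate 1 (edgeR adjusted p = 0.00634 and 0.00468). The 13 mitochondrially encoded genes gave medians of 0.10, -0.15 and -0.17 in the compound 1 libraries and -0.15, 0.02 and 0.12 in the DMSO libraries, so that the groups largely overlapped. Of these genes none passed in edgeR with 3 replicates, 1 fell in DESeq2, 1 was lower at an unadjusted p under 0.05 and 6 fell without replicate 1. MT-CO1, a core subunit of cytochrome oxidase, overlapped between the groups at 7243, 8194 and 8726 CPM and 7863, 6974 and 6890 CPM and fell without replicate 1 (log2 fold change -0.22, edgeR adjusted p = 0.00901).

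**Figure D4:**
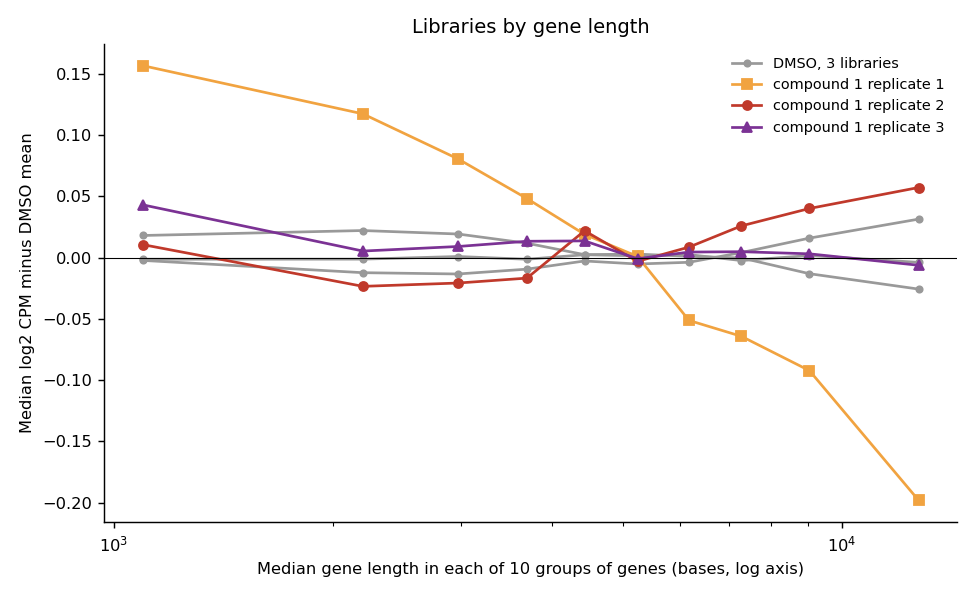
Median of log2 CPM minus the DMSO mean (y axis) in 10 groups of genes of increasing length (x axis, bases, log axis), with 1 line per library. Replicate 1 of compound 1 runs from 0.16 in the shortest group to -0.20 in the longest, while the other 5 libraries stay between -0.03 and 0.06.

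Gene length moved with replicate 1. Across the genes tested, its deviation from the DMSO mean had a Spearman correlation of -0.33 with gene length, against -0.11 to 0.08 in the other 5 libraries, a description across genes that share the library. In the shortest of 10 equal groups of genes by length (median 1097 bases) the median deviation was 0.16 in replicate 1, 0.01 in replicate 2 and 0.04 in replicate 3. In the longest group (median 12761 bases) it was -0.20, 0.06 and -0.01. Among 8836 genes at 10 CPM or more, replicate 1 was below both other compound 1 libraries by at least 0.5 on the log2 scale for 194 genes with a median length of 11201 bases, and above both for 37 genes with a median of 2950 bases. The median length was 4064 bases for the risen genes, 7573.5 for the fallen and 4822 for all genes tested. With each library's length trend removed, 63 of the 63 risen and 47 of the 48 fallen genes kept an adjusted p under 0.05 in edgeR.

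Several gene programs showed no call in edgeR with all libraries, although most had some without replicate 1. In that fit 3.46% of all genes tested rose and 6.10% fell. With all libraries, 7.35% of all genes tested were higher and 7.69% lower at an unadjusted p under 0.05. Of 24 tested MAPK pathway output genes, 0 passed in edgeR or DESeq2, 3 were higher and 5 lower at an unadjusted p under 0.05, and the median was 0.00. Without replicate 1, 1 rose and 5 fell in edgeR. The leading members were the ephrin receptor EPHA4 (log2 fold change -0.28, edgeR adjusted p = 0.109) and the ETS factor ETV1, at 9.77, 10.5 and 10.3 CPM and 12.9, 14.6 and 14.5 CPM (log2 fold change 0.46, edgeR adjusted p = 0.129). Without replicate 1, EPHA4 fell (edgeR adjusted p = 0.0175) and ETV1 rose (edgeR adjusted p = 0.028). Of 48 mitosis and spindle genes 0 passed in edgeR or DESeq2, 4 were higher and 3 lower at an unadjusted p under 0.05, and the median was 0.02. Without replicate 1, 4 rose, 3 fell and the median was 0.06. FOXM1, the factor that drives them, had 222, 221 and 220.2 CPM and 195, 185 and 193 CPM (log2 fold change -0.21, edgeR adjusted p = 0.13) and fell without replicate 1 (edgeR adjusted p = 0.00465). Of 24 p53 targets 0 passed in edgeR or DESeq2, and 3 were higher and 1 lower at an unadjusted p under 0.05, while 1 fell without replicate 1. CDKN1A, the inhibitor of cyclin-dependent kinases, had 1.68, 2.23 and 1.49 CPM and 4.33, 2.75 and 2.42 CPM, without overlap and with replicate 1 highest (log2 fold change 0.81, SE 0.31, edgeR adjusted p = 0.229).

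Stress, histone and adhesion programs likewise gave 0 calls at an adjusted p under 0.05 in edgeR with all libraries, and in DESeq2 1 aryl hydrocarbon receptor target and 1 adhesion gene fell. Over all genes tested, 7.35% were higher and 7.69% lower at an unadjusted p under 0.05. In the edgeR fit without replicate 1, 3.46% of all genes rose and 6.10% fell. At an unadjusted p under 0.05, 4 of 35 unfolded protein response and heat shock genes were higher and 2 lower, and 2 of 34 hypoxia and glycolysis genes were higher and 6 lower. The same counts were 2 and 4 for 25 NRF2 targets, 0 and 1 for 8 aryl hydrocarbon receptor targets, 2 and 3 for 42 adhesion genes and 0 and 2 for 21 replication-dependent histone genes. Without replicate 1, edgeR called 7 fallen and 0 risen hypoxia and glycolysis genes, 5 fallen and 3 risen adhesion genes, 4 fallen and 1 risen unfolded protein response and heat shock genes, and 4 fallen NRF2 targets. It also called 1 fallen histone gene and 1 fallen aryl hydrocarbon receptor target there, and no risen member of these or of the NRF2 targets. The cochaperone BAG3 had 104, 99.6 and 96.6 CPM and 95.7, 72.4 and 73.7 CPM (log2 fold change -0.31, edgeR adjusted p = 0.149). Replicate 1 of BAG3 lay close to DMSO, and without it BAG3 fell by 0.46 (edgeR adjusted p = 1.86e-05). ADM, the hypoxia-induced peptide adrenomedullin, had 12.5, 15.3 and 15.5 CPM and 9.07, 9.67 and 10.7 CPM, without overlap (log2 fold change -0.56, edgeR adjusted p = 0.0842), and talin (TLN1), which links integrins to actin, gave -0.27 (edgeR adjusted p = 0.0754). The other leading members had log2 fold changes of 0.25 for the chaperonin HSPE1, 0.53 for the glucose transporter SLC2A3, -0.46 and -0.31 for the NRF2 targets OSGIN1 and SRXN1, 0.14 for the quinone reductase NQO1, -0.41 for the adhesion receptor NECTIN1, and -0.22 and -0.94 for the histones HIST1H2BK and HIST1H4J. Their edgeR adjusted p were 0.106, 0.132, 0.199, 0.168, 0.359, 0.122, 0.274 and 0.272. Without replicate 1, HSPE1 rose and ADM, TLN1, OSGIN1, NECTIN1 and HIST1H2BK fell, with edgeR adjusted p of 0.0254, 0.0334, 0.00442, 0.00352, 0.0368 and 0.0305. Of 57 autophagy and lysosome genes OPTN alone rose in edgeR with all libraries and the median was 0.02, whereas 4 rose and 3 fell without replicate 1 and 2 rose in DESeq2.

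The genes moved by compound 1 were then read in the cells treated with the ERK inhibitor SCH772984 at the same dose and time. Both inhibitors share the DMSO libraries, so their values are given side by side and the difference was tested directly between the inhibitors. SCH772984 changed 72.8% of the genes tested against DMSO, and compound 1 differed from SCH772984 in 66.3%. Against SCH772984, 51 of the 63 risen and 41 of the 48 fallen genes differed at an adjusted p under 0.05 in edgeR. These genes were picked on the same compound 1 libraries that the direct test used. With SCH772984 against DMSO, 35 of the 63 risen genes also rose and 16 fell. Of the 48 fallen genes, 27 also fell and 11 rose. The shared DMSO libraries favour the same direction in these counts, so nothing is concluded from them. CXCL8 gave 0.68 with compound 1 and -7.49 with SCH772984 on the log2 scale, and the direct difference was 8.16 (edgeR adjusted p = 2.85e-19). CXCL5 gave 0.78 and -3.27, with a direct difference of 4.04 (edgeR adjusted p = 4.43e-16). For CXCL2 the values were 1.17 and -1.72, and for PTGES 1.17 and -1.01, with direct differences of 2.88 and 2.17 (edgeR adjusted p = 4.5e-11 and 1.29e-12).

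B2M and OPTN were among the risen genes that were higher with either inhibitor, and more so with SCH772984. B2M gave 0.46 and 1.09 (direct difference -0.65, edgeR adjusted p = 3.91e-07), and OPTN 0.59 and 2.31 (direct difference -1.73, edgeR adjusted p = 6.05e-11). Among the fallen cytoskeletal genes and YAP/TEAD and SRF targets the values with SCH772984 varied. FLNA fell by 0.42 with compound 1 and gave 0.0059 with SCH772984 (direct difference -0.44, edgeR adjusted p = 7.03e-05), and AMOTL2 fell by 0.58 and gave -0.12 (direct difference -0.48, edgeR adjusted p = 4.6e-05). MICAL2, MYH9 and PLEC gave -0.075, 0.31 and 0.15 with SCH772984, with direct differences of -0.60, -0.60 and -0.44 (edgeR adjusted p = 0.000416, 2.15e-06 and 6.66e-05). TEAD4 and CAV1 gave -1.24 and -0.57, and compound 1 exceeded SCH772984 by 0.84 and 0.24 (edgeR adjusted p = 1.99e-07 and 0.0176). For AXL, ACTN4 and WASF2 the direct differences of -0.083, -0.14 and -0.094 did not pass (edgeR adjusted p = 0.413, 0.153 and 0.383). FASN gave -0.56 and -0.31 (direct difference -0.25, edgeR adjusted p = 0.011). FOXD1, TRIM28 and MCM2 gave -1.89, -1.08 and -1.72 with SCH772984, and compound 1 exceeded it by 1.18, 0.62 and 1.35 (edgeR adjusted p = 6.93e-09, 2.11e-06 and 2.89e-11). For NFKB2 and SRSF5 the difference between the inhibitors did not pass the test, at 0.11 (SE 0.092) and 0.14 (SE 0.085). NOTCH1 went in opposite directions, -0.34 with compound 1 and 1.10 with SCH772984 (direct difference -1.45, edgeR adjusted p = 3.37e-12).

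**Figure D5:**
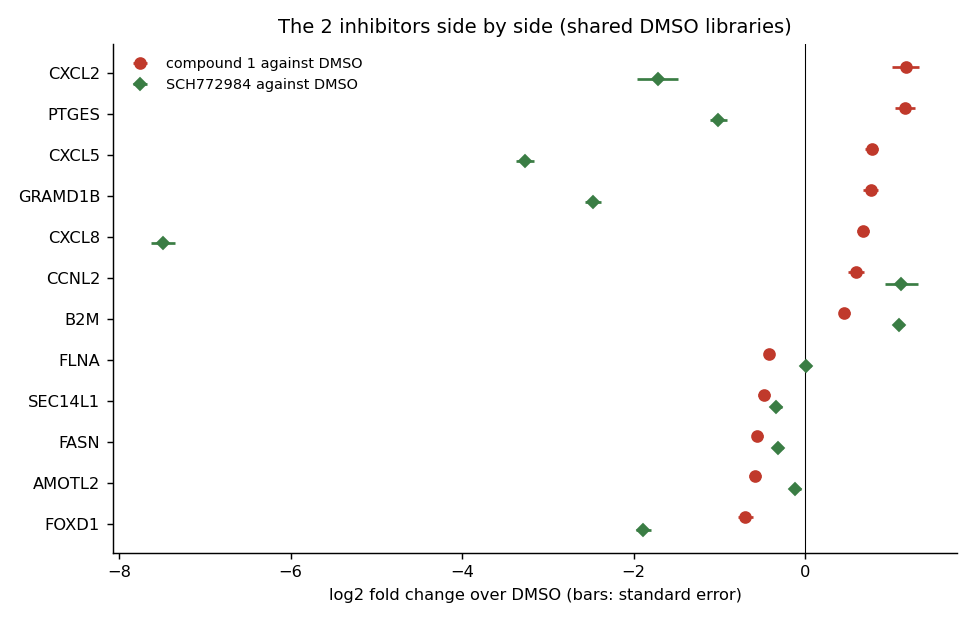
Log2 fold change over DMSO (x axis, bars show the standard error) with compound 1 and with SCH772984 for the 12 genes whose compound 1 call held in at least 4 of the 6 fits that left out 1 library. The 5 uppermost genes lie right of zero with compound 1 and left of zero with SCH772984, down to -7.49 for CXCL8, while CCNL2 and B2M lie right of zero with both.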

How the data were processed

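RNA-seq libraries of MIA PaCa-2 cells were compared, 3 with compound 1 and 3 with DMSO. Per the labels and the submitters' processing notes, the authors aligned reads to hg38 with HISAT2 2.0.5 and deposited raw read counts per gene from featureCounts 1.5.0-p3. The strand setting is not given in the sources used here. Groups came from the sample labels.

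Counts were tested in R 4.3.3 with edgeR 4.0.16 (TMM factors, robust quasi-likelihood fit, Benjamini-Hochberg adjustment). Genes were kept by edgeR's filter at a minimum count of 10 and a minimum total of 15, and an adjusted p under 0.05 was called. CPM values use the TMM-scaled library sizes of the 6 libraries, and the SE is the log2 fold change divided by the root of the test statistic. The test was also run on simulated counts, drawn independently for each gene and library. These held no deviating library and no length trend, so they do not bear on those features of replicate 1. Alternatives used DESeq2 1.42.0, limma 3.58.1 with quality weights, other factors and filters, all 9 libraries, removal of the length trend, a replicate block and leaving out each library. Library totals of 9464432 to 10286223 counts limit the precision for genes of a few CPM.

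The gene lists and the comparison were chosen with earlier results of these data known. Genes were named by rule. The rule took TBK1, IKBKE, CDC25A and TRIM28, the 12 largest changes and the 5 smallest p in each direction at a mean of at least 2 CPM, the 6 largest in each direction that also passed without replicate 1, and per list up to 4 members that passed, or the 2 with the smallest p where none did. The minimum level did not apply to the smallest p. ACACA, ACTN4, BIRC3, CAD, CAV1, CCDC159, CCNL2, CSF3, CTGF, CXCL1, CXCL3, CYR61, ERAP2, HLA-B, HLA-C, IKBKB, LPCAT1, MAT2A, MYH9, NFKBIA, PLAU, PLEC, RSRP1, SCD, SREBF1, TANK, TEAD4 and WASF2 fell outside it and were chosen after their values were seen. Promoter sequences came from RefSeq (GRCh38.p14) by gene symbol, and 24 risen and 13 fallen genes had no entry.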

Additional observations from a re-analysis of the deposited data

How the results depend on the processing

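The counts of called genes depended strongly on the processing, while no gene named by the rule reversed its direction. Medians of lists close to 0 could change sign, as for the innate sensors and IRF factors, at 0.09 with all libraries and -0.03 without compound 1 replicate 1. With 63 higher and 48 lower genes at an adjusted p under 0.05 in edgeR, leaving out 1 library gave 5 to 453 higher and 3 to 798 lower genes. The highest counts came without compound 1 replicate 1 and the lowest without DMSO replicate 2. At an unadjusted p under 0.05, leaving out 1 library gave 570 to 1310 higher and 607 to 1655 lower genes. Higher and lower calls numbered 117 and 119 with DESeq2, 189 and 228 without a filter, 141 and 206 with the length trend removed, and 873 and 1085 with limma's quality weights, where unadjusted calls were 1907 and 1951. Library size alone shifted the balance to 85 higher and 25 lower, with the median of all genes at 0.03. One fit over all 9 libraries gave 91 and 97, protein-coding genes alone 38 and 32, and a 1.5-fold minimum left 33 and 5. The cause of these shifts was not tested.

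The replicate block gave 193 higher and 219 lower genes. Same-numbered libraries deviated together with correlations of 0.12, -0.027 and 0.0013, so the numbers were not taken as pairs. Factors of DESeq2's kind in edgeR and a minimum of 10 counts in every library left both adjusted counts within 1.5 times. At the depth of these libraries, genes of a few CPM had SEs too large for small changes to pass.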
